A study of Mus musculus with 4 samples.

Results

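The 8 genes described here encode the SREBP transcription factors, the sterol sensor that restrains them, and 5 enzymes of cholesterol synthesis. They are Srebf1, Srebf2, Insig1, Hmgcs1, Idi1, Fdps, Sqle and Cyp51, chosen by gene symbol as a pathway known to respond to mutant p53, and all 8 matched a row among the 24421 genes of the deposited count table. RNA was sequenced from LSK cells, the lineage-negative, Sca1-positive, Kit-positive fraction of mouse bone marrow in which blood stem cells and the earliest progenitors lie. The cells came from p53R248W/+ mice, which carry 1 mutant allele of Trp53 beside a normal one (2 libraries), and from WT mice (2 libraries), all between 13 and 15 months of age. How the allele was made, whether animals were pooled and whether libraries of a genotype came from separate animals is not stated in the labels. The p-values therefore reflect how these 4 libraries varied, which may include technical variation alone.

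Animal cells build cholesterol from acetyl-CoA through mevalonate and squalene, and they tune the pathway by feedback. When sterol in the endoplasmic reticulum is low, the sensor protein Scap carries SREBP precursors to the Golgi apparatus, where the proteases encoded by Mbtps1 and Mbtps2 release the active factors. These then switch on genes with sterol regulatory elements. When sterol is plentiful, Insig proteins hold Scap back. SREBP-2, from Srebf2, mainly drives cholesterol synthesis and uptake, and the products of Srebf1 mainly drive fatty acid synthesis. In human breast cancer cells, mutant p53 has been described as a partner of SREBP that raises mevalonate pathway genes.

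Total counts were between 12111126 and 14820759 per library, and 13296 genes passed the filter on low counts and were tested. All 8 members were among them, each with at least 32 counts in every library. Levels are given as CPM, read counts divided by TMM-scaled library size, and genotypes were compared by the quasi-likelihood test of edgeR over all tested genes, with an adjusted p below 0.05 as the threshold. Trp53 itself was at 245 and 332 CPM in p53R248W/+ libraries, against 362 and 302 CPM in WT libraries, and gene counts do not tell its alleles apart. The sorting marker Kit was at 1182 and 1105 CPM in p53R248W/+ libraries, against 911 and 998 CPM in WT libraries, and Ly6a, which encodes Sca1, lay between 40.2 and 82.9 CPM over both genotypes. The 4 globin genes examined were at 0 counts in every library.

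None of the 8 genes passed the threshold, and neither did any other gene: 0 of 13296 tested genes, or 0%, were called by edgeR's quasi-likelihood test. At an unadjusted p below 0.05 there was 1 member, Srebf1, where 5.87% of all tested genes reached that level. Srebf1 transcripts were 1.87-fold higher in p53R248W/+ cells by the fit, while Srebf2, Insig1, Hmgcs1, Sqle and Cyp51 had fitted folds between 0.907 and 1.05. The median log2 fold change of the members was -0.03, beside -8.8e-05 over all tested genes. Of the members 3 had a positive and 5 a negative log2 fold change, and 50% of all tested genes had a negative one. For 4 members the p53R248W/+ and WT values did not overlap, beside 33.6% of all tested genes. Srebf1, Idi1 and Cyp51 were higher in both p53R248W/+ libraries, as were 16.9% of all tested genes, and Fdps was lower in both, as were 16.6%.

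**Figure D1:**
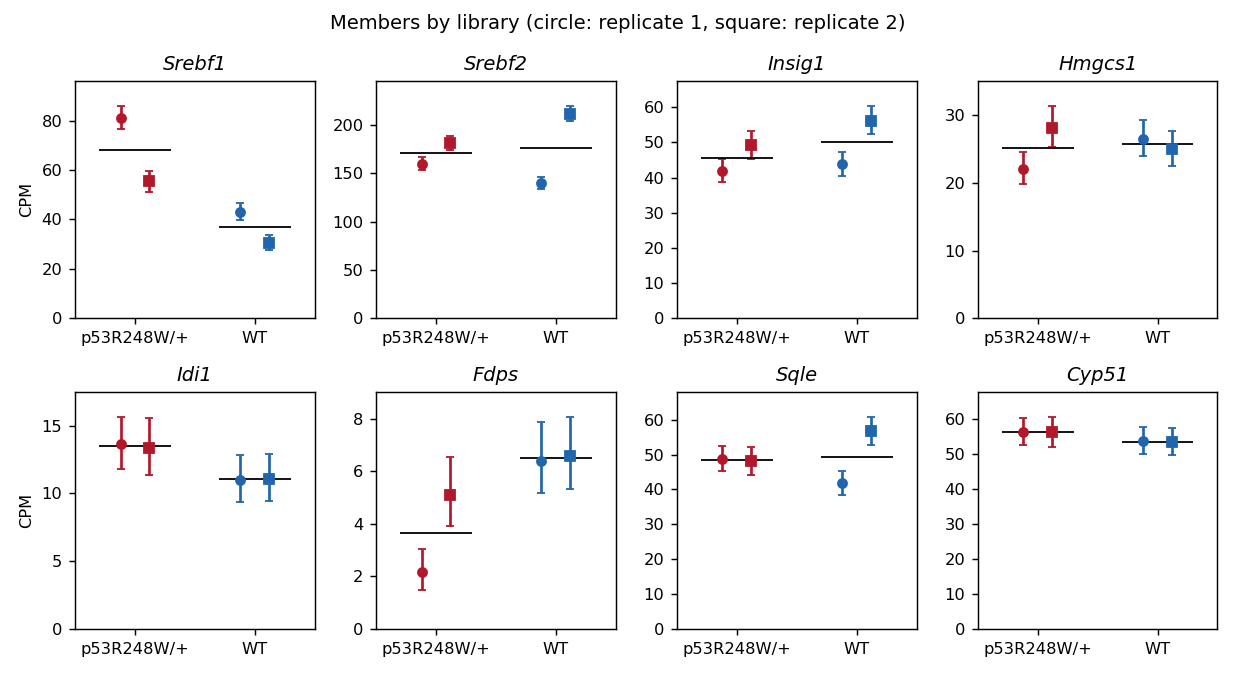
Level of each member in CPM (vertical axis, from 0) in the p53R248W/+ and WT libraries; points are single libraries, whiskers are exact Poisson 95% intervals that cover counting error only, and black lines are genotype means. Srebf1 is higher in both p53R248W/+ libraries (81.1 and 55.4 CPM, against 43.0 and 30.6 CPM in WT), Cyp51 is nearly level over all 4 libraries, and the counting intervals of the WT libraries do not overlap for Srebf1, Srebf2, Sqle and Insig1.

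Srebf1 (mm10 chromosome 11, 60199089 to 60220604, minus strand, 19 exon blocks and 4299 exon bases) encodes the SREBP-1 proteins. It had 1202 and 671 counts in the p53R248W/+ libraries, against 616 and 436 counts in the WT libraries. Scaled for depth these were 81.1 and 55.4 CPM in p53R248W/+, against 43.0 and 30.6 CPM in WT. Both p53R248W/+ libraries thus lay above both WT libraries, and replicate 1 was the higher of the pair in each genotype. The exact Poisson 95% intervals, which cover counting error only, did not overlap between any of the 4 libraries, from 27.8 to 33.6 CPM in WT replicate 2 up to 76.6 to 85.8 CPM in p53R248W/+ replicate 1. The means were 68.2 ± 18.1 CPM in p53R248W/+ and 36.8 ± 8.75 CPM in WT (SD, n = 2 each). The log2 fold change was 0.91 ± 0.34 (SE), with a 95% interval from 0.18 to 1.63. It ranked 229 among the 13296 tested genes by p and did not pass (unadjusted p = 0.0169, adjusted p = 0.824, edgeR quasi-likelihood test). Without p53R248W/+ replicate 1 the log2 fold change was 0.59, and without WT replicate 2 it was 0.69. It was 1.14 without p53R248W/+ replicate 2 and 1.17 without WT replicate 1. Rai1, which overlaps 107 of the Srebf1 exon bases on the opposite strand, was at 174 and 141 CPM in p53R248W/+, against 153 and 140 CPM in WT.

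Summed levels of some marker lists were, like Srebf1, higher in both p53R248W/+ libraries, and in bulk RNA a different number of cells of a type and a different amount of RNA per cell cannot be told apart. The 7 B cell markers summed to 44.1 and 24.2 CPM in p53R248W/+ libraries, against 8.23 and 12.8 CPM in WT libraries. All 4 tested B cell markers were higher in both p53R248W/+ libraries, as were 16.9% of all tested genes. Of the B cell markers not tested, Ebf1 and Cd79a overlapped between the genotypes, and Pax5 was at 0 counts throughout. Ebf1 had 6 and 47 counts in p53R248W/+, against 8 and 7 counts in WT. Cd79a had 30 and 6 counts in p53R248W/+, against 9 and 0 counts in WT. The 8 stromal and endothelial markers summed to 211 and 162 CPM in p53R248W/+, against 126 and 102 CPM in WT. Pecam1, which stem cells also express, gave 105 and 100.4 CPM of this in p53R248W/+, against 70.4 and 50.7 CPM in WT. Among the stromal and endothelial markers p53R248W/+ replicate 1, the library with the most Srebf1, was highest for Pecam1, Pdgfrb, Col1a2, Lepr and Cdh5. Kdr was highest in p53R248W/+ replicate 2, at 25.3 CPM against 20.4 CPM in p53R248W/+ replicate 1. Col1a2 had 487 and 42 counts in p53R248W/+ libraries, against 123 and 218 counts in WT libraries. Lepr had 84 and 1 counts and Cdh5 27 and 0 counts in p53R248W/+ libraries, against 0 for both genes in WT libraries. Col1a1 had at most 2 counts in any library, and Cxcl12 was at 0 counts throughout. The 10 stem cell markers, among them Kit, summed to 4360 and 4052 CPM in p53R248W/+, against 3327 and 3651 CPM in WT. Summed levels of the T and NK cell, macrophage, neutrophil, erythroid and mast cell markers overlapped between the genotypes. The part of such cells in the Srebf1 value was not tested.

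Srebf2 (chromosome 15, 82147269 to 82204960, plus strand, 19 exon blocks and 4570 exon bases), which encodes SREBP-2, was the most abundant member. It was at 160 and 181 CPM in p53R248W/+ libraries, against 140 and 211 CPM in WT libraries. The WT libraries stood 1.51-fold apart and enclosed both p53R248W/+ values, so the genotypes overlapped. The log2 fold change was -0.05 ± 0.22 (SE), with a 95% interval from -0.52 to 0.43 (adjusted p = 0.990, edgeR quasi-likelihood test), and the interval runs from 0.699-fold to 1.34-fold. Its sign turned with single libraries left out, with a value of -0.31 when WT replicate 1 was dropped, 0.29 when WT replicate 2 was dropped and 0.04 when p53R248W/+ replicate 1 was dropped.

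Per kilobase of exon, Srebf1 stood at 0.539 and 0.325 of the Srebf2 level in p53R248W/+ libraries, against 0.326 and 0.154 in WT libraries. The ratios of p53R248W/+ replicate 2 and WT replicate 1 were nearly equal, so the genotypes were not separated by it beyond the spread between libraries. With 2 libraries against 2, an exact permutation test cannot reach a level below 0.05, and none was run on this ratio.

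The sequences before the starts of the 2 SREBP genes are shown because Srebf1 transcripts can begin at separate first exons, which a count per gene does not tell apart. RefSeq windows on GRCm38.p6 (the mm10 assembly) gave 3 start sites for Srebf1. They lay 1977 and 23 bases before the first counted base and 10133 bases inside the gene. The start base of the internal site was outside every counted exon block. The extent of the first exon at that site was not compared with the counted blocks, so whether its reads were counted for Srebf1 is not known. Each line gives the 250 bases before a start site, 5′ to 3′ on the strand of the gene, and capitals mark the CCAAT box, the site of the factor NF-Y that works beside SREBP, read as CCAAT or on the other strand as ATTGG.
Srebf1 upstream start, chr11:60220628-60220877, minus strand: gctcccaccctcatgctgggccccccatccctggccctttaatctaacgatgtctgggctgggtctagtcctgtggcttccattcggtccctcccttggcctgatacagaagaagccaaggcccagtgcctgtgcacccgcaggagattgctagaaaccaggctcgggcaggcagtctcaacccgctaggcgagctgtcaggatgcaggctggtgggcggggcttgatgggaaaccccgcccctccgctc
Srebf1 internal start, chr11:60210472-60210721, minus strand: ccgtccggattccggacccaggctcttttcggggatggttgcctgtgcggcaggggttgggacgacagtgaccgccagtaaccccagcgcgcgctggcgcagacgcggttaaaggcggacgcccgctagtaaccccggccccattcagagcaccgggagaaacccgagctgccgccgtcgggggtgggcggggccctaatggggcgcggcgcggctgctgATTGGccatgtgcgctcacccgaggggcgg
Srebf2 start, chr15:82147019-82147268, plus strand: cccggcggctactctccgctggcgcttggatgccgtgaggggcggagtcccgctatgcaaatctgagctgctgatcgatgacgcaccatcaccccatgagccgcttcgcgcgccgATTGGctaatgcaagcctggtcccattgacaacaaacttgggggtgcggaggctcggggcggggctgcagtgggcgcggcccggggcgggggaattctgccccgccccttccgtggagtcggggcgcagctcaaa
The internal Srebf1 window held a CCAAT box beginning 30 bases before the start, and the Srebf2 window held one beginning 135 bases before it. The upstream Srebf1 window printed here held none. The other upstream Srebf1 window, chr11:60222582-60222831, is not printed and held a CCAAT box beginning 166 bases before its start. The letters TCACNCCAC, the core of a sterol regulatory element, were searched on both strands and were in none of these windows, which says nothing of other forms of the element or of sites elsewhere.

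Insig1 (chromosome 5, 28071412 to 28078662, plus strand) encodes the endoplasmic reticulum protein that retains Scap when sterol is plentiful, and it is itself an SREBP target. It was at 42.0 and 49.1 CPM in p53R248W/+ libraries, against 43.8 and 56.2 CPM in WT libraries. The genotypes overlapped, with both replicates 1 low and both replicates 2 high. Its log2 fold change came to -0.14 ± 0.34 (SE), with a 95% interval from -0.85 to 0.57 (adjusted p = 0.969, edgeR quasi-likelihood test). It was 0.06 without WT replicate 2 and -0.31 without WT replicate 1.

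Hmgcs1 (chromosome 13, 119690351 to 119708260, plus strand) encodes the cytosolic HMG-CoA synthase, which joins acetoacetyl-CoA and acetyl-CoA just before the step that makes mevalonate. It was at 22.1 and 28.2 CPM in p53R248W/+ libraries, against 26.6 and 24.97 CPM in WT libraries. The WT values lay between the p53R248W/+ values, and the log2 fold change was -0.05 ± 0.43 (SE), with a 95% interval from -0.96 to 0.86 (adjusted p = 0.994, edgeR quasi-likelihood test). Dropping p53R248W/+ replicate 1 gave 0.13, and dropping p53R248W/+ replicate 2 gave -0.22. An antisense gene of GENCODE M21, Gm48342, covers 557 of its exon bases, and the labels do not say whether counting used strand. The Hmgcs1 promoter is shown because it was the one member window that held the letters of the sterol regulatory element core. The 250 bases before its start follow, with capitals for the element TCACCCCAC and for 3 CCAAT boxes on the other strand.
Hmgcs1 start, chr13:119690101-119690350, plus strand: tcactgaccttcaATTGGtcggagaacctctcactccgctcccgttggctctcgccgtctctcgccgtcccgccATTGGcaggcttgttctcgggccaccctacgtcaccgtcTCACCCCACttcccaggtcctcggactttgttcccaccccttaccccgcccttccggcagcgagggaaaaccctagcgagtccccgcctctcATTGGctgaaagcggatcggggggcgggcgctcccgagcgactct
The element began 137 bases before the start, and the CCAAT boxes began 237, 176 and 45 bases before it. Over the 32851 RefSeq promoter windows of this length, 1.05% held TCACNCCAC and 33.8% held CCAAT on either strand. For 6 of the 8 members windows were found, and all 6 genes had a CCAAT box in at least 1 window, in 7 of 8 windows. Among the 51 further pathway genes with windows, 28 had a CCAAT box in at least 1 window, in 30 of 72 windows. Of these genes 0 had the element core in the 250 bases searched. A match is a description of these letters and shows no binding.

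Idi1 (chromosome 13, 8885606 to 8892396, plus strand) encodes the isomerase that sets the balance of the activated isoprene units. It was at 13.6 and 13.4 CPM in p53R248W/+ libraries, against 11.02 and 11.08 CPM in WT libraries. Both p53R248W/+ values were higher and the libraries of each genotype lay close together, but the Poisson intervals of all 4 libraries overlapped. On the log2 scale the difference was 0.29 ± 0.58 (SE), with a 95% interval from -0.923 to 1.503 (adjusted p = 0.962, edgeR quasi-likelihood test). Processed pseudogenes hold near-identical stretches of its transcript, with 684 aligned bases at 100% identity in Gm13502 and 681 at 97.7% in Gm35570. The model Gm48574 covers 218 of its exon bases on the opposite strand. Its count is therefore uncertain where reads align to more than 1 place or were counted without strand.

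Fdps (chromosome 3, 89093588 to 89101967, minus strand) encodes farnesyl diphosphate synthase, whose product feeds squalene and the isoprenoid branches. It was the lowest member, with 32 and 62 counts in p53R248W/+ libraries, against 92 and 94 counts in WT libraries. These were 2.16 and 5.12 CPM in p53R248W/+, against 6.42 and 6.59 CPM in WT. Both p53R248W/+ values lay below both WT values, and the p53R248W/+ libraries differed 2.37-fold from each other while the WT libraries differed 1.03-fold. The log2 fold change was -0.89 ± 0.85 (SE), with a 95% interval from -2.68 to 0.89 (adjusted p = 0.898, edgeR quasi-likelihood test). Dropping p53R248W/+ replicate 1 gave -0.34, and dropping p53R248W/+ replicate 2 gave -1.59. Of all members Fdps had the most near-identical copies, 5 genes with at least 200 aligned bases at 95% identity or more. These were the processed pseudogenes Gm3571, Gm5873, Gm7979 and Gm8163 and the overlapping gene model Gm43738, and Gm3571 matched over 1062 bases at 98.9% identity. The Fdps level is uncertain, since the labels do not say what became of reads that align to several places.

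Sqle (chromosome 15, 59315092 to 59331193, plus strand) encodes squalene epoxidase, which adds the first oxygen to squalene and limits the later part of the pathway. It was at 48.7 and 48.1 CPM in p53R248W/+ libraries, against 41.7 and 56.7 CPM in WT libraries. The WT libraries again enclosed the p53R248W/+ values, as they did for Srebf2. Fitted over all libraries, the log2 fold change was -0.02 ± 0.33 (SE), with a 95% interval from -0.73 to 0.68 (adjusted p = 0.996, edgeR quasi-likelihood test), and it was 0.22 without WT replicate 2 and -0.23 without WT replicate 1.

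Cyp51 (chromosome 5, 4080674 to 4104697, minus strand) encodes the sterol demethylase that acts on lanosterol. It was at 56.4 and 56.2 CPM in p53R248W/+ libraries, against 53.7 and 53.4 CPM in WT libraries. Both p53R248W/+ libraries were higher, but the highest and the lowest of the 4 values were 1.06-fold apart and all Poisson intervals overlapped. The log2 fold change was 0.07 ± 0.31 (SE), with a 95% interval from -0.58 to 0.72 (adjusted p = 0.985, edgeR quasi-likelihood test), and with 1 library left out it stayed between 0.07 and 0.08. In GENCODE M21 Akap9 covers 637 of its exon bases on the opposite strand. Akap9 was at 426 and 532 CPM in p53R248W/+, against 600 and 464 CPM in WT, so reads of its overlapping end may be among those counted for Cyp51.

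**Figure D2:**
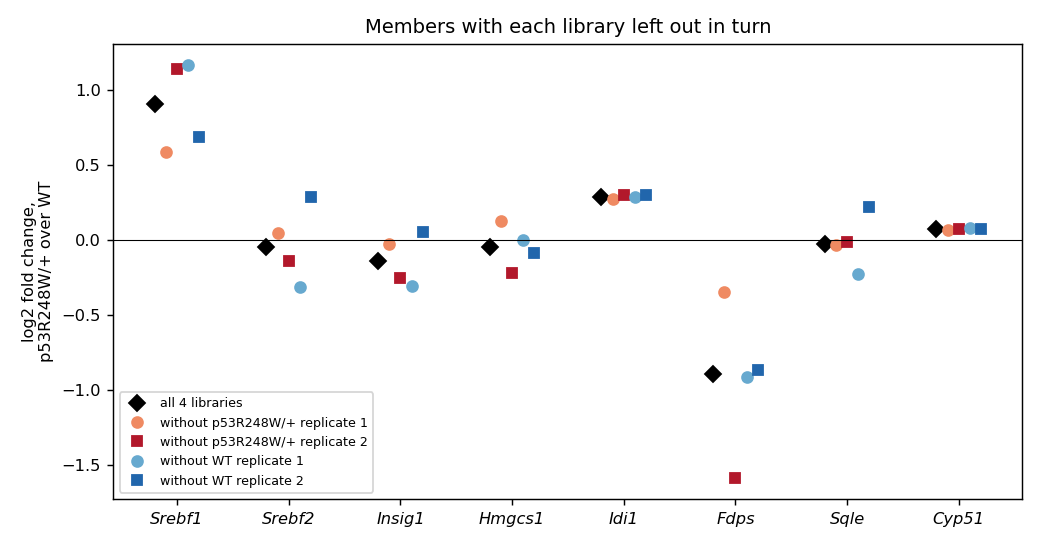
Log2 fold change of each member, p53R248W/+ over WT, with all 4 libraries (black diamonds) and with each library left out in turn (coloured points). Srebf1 stays positive between 0.59 and 1.17 and Fdps negative between -1.59 and -0.34, while Srebf2, Insig1, Hmgcs1 and Sqle take both signs.

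Levels of different genes were compared per kilobase of exon, as CPM over exon length (RPKM), as means over all 4 libraries. The order ran from Srebf2 at 37.9 RPKM through Insig1 at 18.0, Sqle at 17.8, Cyp51 at 12.6, Srebf1 at 12.2, Hmgcs1 at 7.12 and Idi1 at 4.28 to Fdps at 3.47 RPKM. Srebf2 lay above Insig1 in every library (30.6 to 46.3 RPKM, against 15.8 to 21.2 RPKM). The ranges over libraries overlapped between neighbours Insig1 and Sqle, Cyp51 and Srebf1, and Idi1 and Fdps, and the order within each of these pairs changed between libraries. The ranges of Srebf1 and Hmgcs1 overlapped too, but Srebf1 was the higher in every library, by little in WT replicate 2 (7.11 against 6.98 RPKM). WT replicate 1 and p53R248W/+ replicate 1 were each the lowest library for 3 members, and WT replicate 2 was the highest for 4.

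The profile most like the median member over the 4 libraries was that of Atp7a, a copper transporter, followed by Rapgef1, Golga4, Gbp7 and Fbrsl1, of 9260 genes with a mean of at least 10 CPM. The measure was the root mean square difference of centred log2 CPM, which was 0.00931 for Atp7a, at 139 and 152 CPM in p53R248W/+, against 131 and 155 CPM in WT. Fdps lay under that level and was not ranked. The other 7 members differed more from the median profile, from 0.0963 for Sqle to 0.546 for Srebf1. Sqle, the nearest member, ranked 502 among the 9260 genes.

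The other genes of cholesterol synthesis were looked at as a list of 16 enzymes, all of which were tested. Of these 0 passed in either direction, 8 had a positive and 8 a negative log2 fold change, and the median was -0.0025. Along the mevalonate part, the log2 fold changes were -0.32 ± 1.01 for the kinase Mvk, -0.02 ± 0.61 for the kinase Pmvk and 0.52 ± 1.25 for the decarboxylase Mvd (SE). Mvk varied widely within both genotypes, at 7.62 and 1.07 CPM in p53R248W/+, against 0.349 and 11.3 CPM in WT. In the squalene and lanosterol part, squalene synthase Fdft1 had a value of -0.15 ± 0.44 and lanosterol synthase Lss of 0.08 ± 0.38 (SE). Fdft1 shares 773 exon bases with Ctsb on the opposite strand, and Lss shares 381 with 4930483K19Rik.

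Of the enzymes after lanosterol, the dehydrogenase Nsdhl (chromosome X) was at 58.8 and 35.1 CPM in p53R248W/+ libraries, against 21.2 and 29.2 CPM in WT libraries. It was the one listed enzyme at an unadjusted p below 0.05, with a log2 fold change of 0.92 ± 0.40 (SE) and an adjusted p of 0.824 (edgeR quasi-likelihood test), and its value was 0.48 without p53R248W/+ replicate 1. Dhcr7, which makes cholesterol from its direct precursor, lay the other way at 29.9 and 28.7 CPM in p53R248W/+, against 48.0 and 41.2 CPM in WT. Its log2 fold change of -0.60 ± 0.37 (SE) did not pass (unadjusted p = 0.124, adjusted p = 0.835, edgeR quasi-likelihood test). The oxidase Msmo1 had a value of 0.22 ± 0.64 (SE), with an interval from -1.12 to 1.56.

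**Figure D3:**
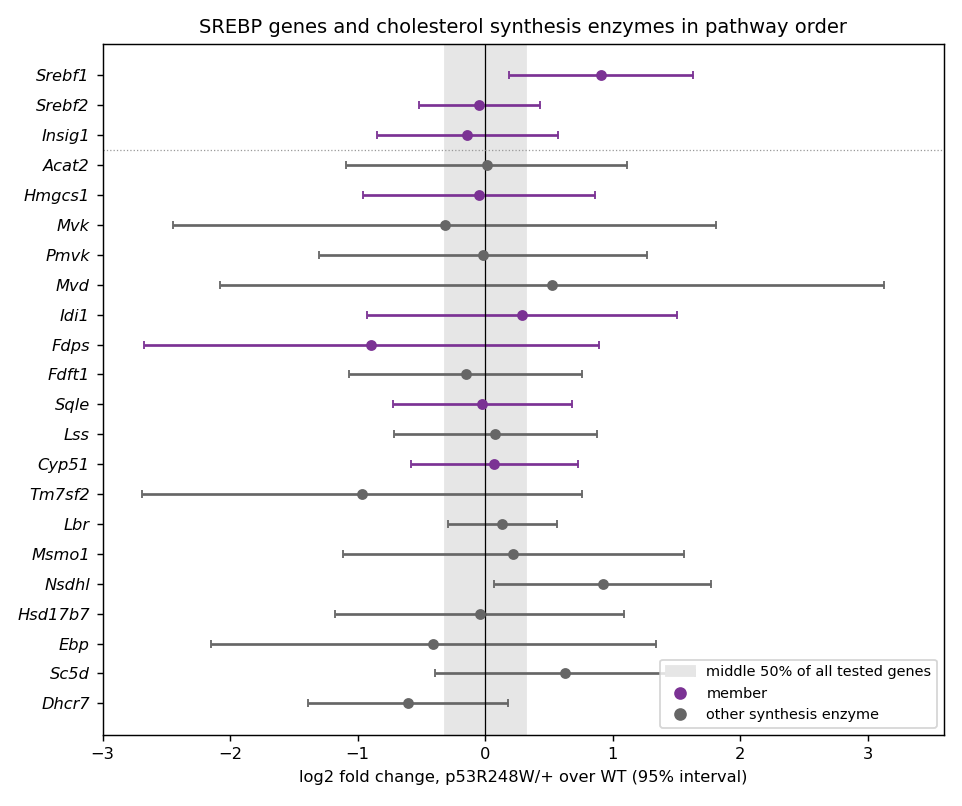
Log2 fold changes, p53R248W/+ over WT, with 95% intervals for the SREBP genes, Insig1 and 19 cholesterol synthesis enzymes, early steps at the top and late ones at the bottom; members are purple, other enzymes are grey, and the band holds the middle 50% of all tested genes (-0.31 to 0.32). The intervals of Srebf1 (0.18 to 1.63) and Nsdhl (0.07 to 1.77) lie above 0 before adjustment, and the other intervals drawn span 0.

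Among 12 genes that process SREBP or turn it over, 0 passed and 0 were at an unadjusted p below 0.05, with a median log2 fold change of -0.11. The escort Scap was at -0.19 ± 0.29, the second Insig gene Insig2 at -0.11 ± 0.46 and the protease Mbtps1 at -0.12 ± 0.25 on the log2 scale (SE). The protease Mbtps2 was lower in both p53R248W/+ libraries, at 56.0 and 71.0 CPM, against 79.9 and 86.6 CPM in WT (log2 fold change -0.40 ± 0.28, SE).

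Among 10 genes of sterol uptake and transport, 0 passed, 1 was higher and 2 were lower at an unadjusted p below 0.05, and the median was -0.15. Stard4, a carrier of cholesterol between membranes, was at 48.4 and 72.3 CPM in p53R248W/+, against 90.0 and 95.8 CPM in WT. The log2 fold change was -0.64 ± 0.29 (SE; unadjusted p = 0.0401, adjusted p = 0.824, edgeR quasi-likelihood test), and it was -0.36 without p53R248W/+ replicate 1. Npc1, which exports cholesterol from lysosomes, lay at 0.47 ± 0.25 on the log2 scale (SE), at 0.30 without WT replicate 1 and at 0.66 without WT replicate 2, with 164 exon bases shared with 3110002H16Rik on the opposite strand.

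Among 12 fatty acid synthesis genes known as SREBP targets, 0 passed, 9 had a positive and 3 a negative log2 fold change, and the median was 0.06. The ATP citrate lyase gene Acly, which supplies acetyl-CoA to both fatty acid and sterol synthesis, was at 146 and 192 CPM in p53R248W/+ libraries, against 101 and 123 CPM in WT libraries. Its log2 fold change was 0.59 ± 0.23 (SE), with an unadjusted p of 0.0200 and an adjusted p of 0.824 (edgeR quasi-likelihood test), and it was 0.38 without p53R248W/+ replicate 2. Fatty acid synthase Fasn was at 209 and 220 CPM in p53R248W/+, against 222 and 204 CPM in WT, a log2 fold change of 0.01 ± 0.19 (SE). The acetyl-CoA carboxylase Acaca was at 0.06 ± 0.23 and the desaturases Scd1 and Scd2 at 0.22 ± 0.58 and 0.03 ± 0.17 (SE). The 95% interval of Scd2 ran from -0.33 to 0.38 and that of Fasn from -0.38 to 0.40.

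Of the 9 genes of sterol efflux, LXR signalling and esterification, 8 were tested and 0 passed, with 4 positive and 4 negative values and a median of 0.00068. The transporters Abca1 and Abcg1, which move cholesterol out of the cell, were at 0.11 ± 0.26 and 0.16 ± 0.25 on the log2 scale, and the LXR gene Nr1h2 was at -0.14 ± 0.47 (SE). Of the 11 genes of the isoprenoid branches 0 passed, with 5 positive and 6 negative values and a median of -0.26. Ggps1, which makes the geranylgeranyl unit that anchors small GTPases, was at 50.7 and 54.3 CPM in p53R248W/+, against 65.7 and 60.2 CPM in WT (log2 fold change -0.26 ± 0.31, SE).

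Over these 6 lists 69 of 70 genes were tested, 35 with a positive and 34 with a negative log2 fold change, and the median was 0.01. At an unadjusted p below 0.05 there were 5, or 7.25%, beside the 5.87% of all tested genes. The genotypes did not overlap for 24 of the 69, or 34.8%, beside 33.6% of all tested genes, with 10 higher and 14 lower in both p53R248W/+ libraries.

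**Figure D4:**
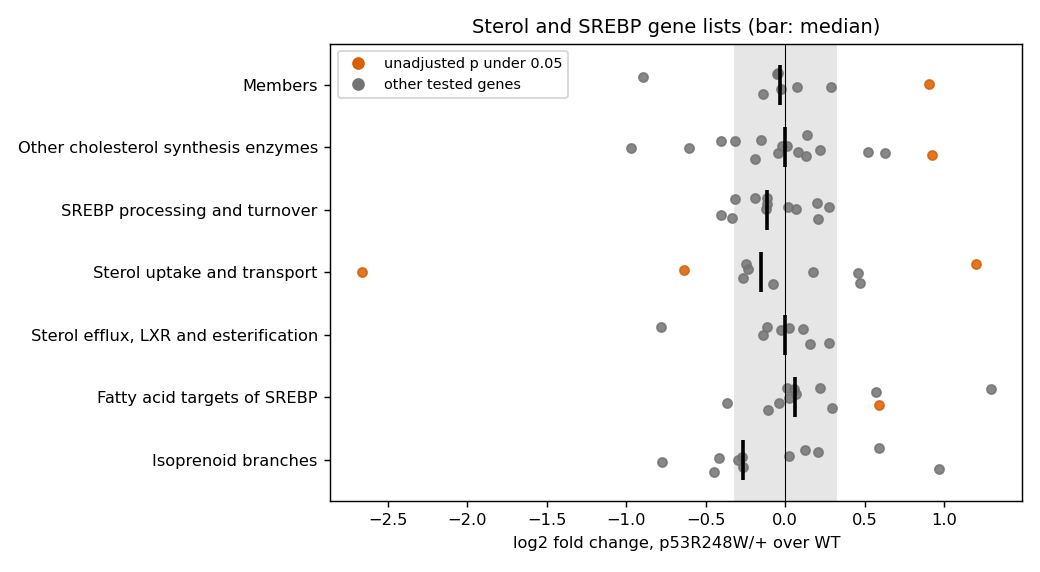
Log2 fold changes, p53R248W/+ over WT, of the tested genes in the member list and in 6 further sterol and SREBP lists; each point is a gene, orange points had an unadjusted p below 0.05, black bars are list medians and the band holds the middle 50% of all tested genes. List medians lie between -0.26 for the isoprenoid branches and 0.06 for the fatty acid targets.

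Cell division genes were looked at because dividing cells need sterol for new membrane. The 18 genes summed to 2158 and 3597 CPM in p53R248W/+ libraries, against 2950 and 3689 CPM in WT libraries, lowest in p53R248W/+ replicate 1. In that library the 8 members summed to 426 CPM, with 437 CPM in the other p53R248W/+ library, against 366 and 451 CPM in WT libraries. The summed member level was thus lowest in WT replicate 1. Of the cell division genes 0 passed, and 2 were at an unadjusted p below 0.05, both lower. On the log2 scale 16 of 18 lay below 0, as did 50% of all tested genes, and their median was -0.25. The genotypes did not overlap for 6 of the 18, all lower in both p53R248W/+ libraries, beside 33.6% of all tested genes in either direction and 16.6% lower. The summed levels of the cell division genes overlapped between the genotypes.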

How the data were processed

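Messenger RNA was measured in 4 libraries of sorted LSK cells, 2 p53R248W/+ and 2 WT, grouped and numbered by the sample titles. The authors deposited a table of raw counts, with 24421 gene symbols and their exon positions. Reads were processed on mm10 with STAR 2.7.10a, Subread 2.0.3 (featureCounts), FastQC 0.11.5 and edgeR 3.40.2, per the submitters' processing notes. Strand and multi-mapping settings are not given in the sources used here. Totals were 14820759 and 12111126 in p53R248W/+ libraries, against 14544290 and 14109906 in WT libraries, and 3 counts equal 0.202 to 0.248 CPM.

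Genes were filtered with filterByExpr (minimum count 10, minimum total 15), scaled by TMM and fitted with glmQLFit (robust=TRUE, legacy=FALSE) in edgeR 4.0.16 and R 4.3.3, and genotype alone was modelled. Benjamini-Hochberg adjustment ran over all 13296 tested genes. SEs are the log2 fold change over the root of the F statistic. The fit was tested on simulated data, where the pass mark covered only large folds at a low spread between libraries. That check does not bear on folds of the size reported here. Alternatives were median-ratio and total-count scaling, DESeq2 1.42.0, voom of limma 3.58.1, the likelihood ratio test, no filter, a stricter filter (a mean of 5 CPM, with 1 CPM in 2 libraries), a block for the replicate number, and dropping each library. Members, lists and the named genes were chosen with earlier results of these data known. Named genes were the members, further pathway genes given by name, the 3 other pathway genes with the smallest unadjusted p and any that passed; some of them are not reported here. The rule for likeness used a pseudocount of 0.5 CPM. Transcripts of GENCODE M21 were compared with BLAST 2.17.0, and promoters came from RefSeq (GRCm38.p6). Ly6g was not analysed here.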

Additional observations from a re-analysis of the deposited data

How the results depend on the processing

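With 2 libraries per genotype a fold near that of Srebf1 did not reach the threshold, and the intervals of the lower members, Fdps and Idi1, are wide. The number of called members and of called pathway genes was 0 under every alternative run. The number of called genes over all tested was 0 under edgeR's quasi-likelihood test (780 at an unadjusted p below 0.05), 6 with DESeq2 and 4 with edgeR's likelihood ratio test, and it lay between 0 and 1 with a library left out. The cause was not tested. The median of the members was -0.03 with all libraries and between -0.11 and 0.15 with a library left out. Leaving out single libraries turned the sign of Srebf2 (-0.31 to 0.29), Insig1 (-0.308 to 0.0573), Hmgcs1 (-0.22 to 0.13) and Sqle (-0.23 to 0.22). Srebf1 (0.59 to 1.17), Idi1 (0.28 to 0.30), Cyp51 (0.07 to 0.08) and Fdps (-1.59 to -0.34) kept their sign. Under the other alternatives no member turned, and Srebf1 lay between 0.89 and 0.91. In the fit that took replicate numbers as a block, Srebf1 was at 0.89 (adjusted p = 0.791) and 0 genes were called. Libraries of the same number did not deviate together (r = 0.0049 across genes), so the numbers were not taken to pair the samples.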
